A study of Mus musculus with 16 samples.

Results

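The Eph receptor and ephrin genes studied here were *Ephb2*, *Ephb3*, *Ephb4*, *Epha1*, *Epha2*, *Efnb1*, *Efnb2*, *Efna1* and *Efna4*, 9 of the 45513 genes counted. They were picked by symbol, and symbols were matched to the Ensembl identifiers of the deposited files. RNA had been sequenced from 16 libraries of the small intestine of 8 *Atoh1*(WT)CreERT2 R26RtdTom mice, 1 library of EpCAM+tdTom+ and 1 of EpCAM+tdTom- live cells per mouse. In these mice the inducible recombinase CreERT2 is made from the *Atoh1* locus, and it switches on a lasting red reporter, tdTomato, in the cell and its progeny. *Atoh1* is a transcription factor gene of secretory progenitors, and the paper reports its expression in mature Paneth and goblet cells too. All groups carried both alleles and, per the labels, had received 1 mg tamoxifen per day on 3 days in a row, the schedule that the methods also give for the secretory signature. The methods on RNA sequencing instead describe an injection of 3 mg the day before collection, and the labels were followed here. Strain, age and sex are not given in the labels. The methods describe the use of pooled crypt-enriched fractions of the proximal small intestine, with the villus-rich fraction discarded. The tdTom- group holds the unlabelled EpCAM+ cells that this protocol recovers. The paper labels its tdTom- cells absorptive, and absorptive markers were higher in them than in tdTom+ cells (values below).

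Ephs are receptor tyrosine kinases and ephrins are their membrane-bound ligands, so a receptor on one cell meets a ligand on its neighbour and both cells can respond. A-class ephrins are held to the membrane by a lipid anchor, and B-class ephrins cross it. Along the intestinal crypt, EphB2 and EphB3 are known as products of Wnt target genes that are abundant toward the crypt base, ephrin-B1 and ephrin-B2 are more abundant toward the villus, and repulsion between them keeps cell types in their places. EphB3 is known as the receptor that holds Paneth cells at the crypt base.

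Total counts per library ranged from 17116405 to 25323567. *Atoh1*, the gene whose locus drives the label, had 48.0 to 80.1 CPM (counts scaled to a common library size, with factors from the trimmed mean of M-values, TMM) in tdTom+ and 0.502 to 1.25 CPM in tdTom- libraries. *Epcam*, the epithelial surface marker used in the sort, averaged 942 CPM in tdTom+ and 1019 CPM in tdTom- libraries. All 8 goblet, 8 Paneth and 8 enteroendocrine markers and 7 of 8 tuft markers were higher in tdTom+ (adjusted p under 0.01), and all 8 absorptive markers were lower. The remaining tuft marker, *Ltc4s*, was called lower, with means of 4.61 CPM in tdTom+ and 11.1 CPM in tdTom- libraries. In the paper's imaging the day after tamoxifen, Dclk1+ tuft cells did not carry the label. Of the stem cell markers 4 of 8 were higher, and of the proliferation markers none was called. Summed CPM of the absorptive markers ran from 1563 to 6021 in tdTom+ and from 14550 to 38346 in tdTom- libraries, the lowest of each being mouse 7. The tdTom- library of mouse 7 stood apart, as its stem cell markers summed to 2894 CPM, against 1157 to 1817 CPM in the other tdTom- libraries, and its immune markers to 1238 CPM, against 54.8 to 1008 CPM. Immune markers were lower in tdTom+, with 7 of 8 called, and their sum was lower in 8 of 8 mice. Fibroblast and muscle markers summed to 18.9 to 45.4 CPM in tdTom+ and 3.88 to 7.98 CPM in tdTom- libraries. The difference lay in *Vim*, with means of 23.4 CPM in tdTom+ and 2.30 CPM in tdTom- libraries. *Acta2* averaged 2.11 and 2.37 CPM and *Myh11* 0.752 and 0.633 CPM, and the other markers of this list had at most 6 counts in any library. The part of these marker differences in the results below was not tested. Fold changes of called members are given with and without mouse 7. In bulk samples, fewer cells of a type and less RNA per cell cannot be told apart.

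The starts of 3 receptor genes are shown because these genes had the largest changes among the receptors of the list, *Ephb3* upward and *Epha1* and *Epha2* downward. The sequences are from RefSeq (build GRCm38.p6), read 5′ to 3′ on the strand of the gene, and end before the gene as the deposited coordinates give it. Capitals mark matches, on either strand, to CTTTGA (a core motif of TCF and LEF factors, which act in Wnt signalling) or to CAGATG and CAGCTG (E-boxes, the kind of motif bound by basic helix-loop-helix factors such as ATOH1).
Ephb3, chr16:21204545-21204754, plus strand: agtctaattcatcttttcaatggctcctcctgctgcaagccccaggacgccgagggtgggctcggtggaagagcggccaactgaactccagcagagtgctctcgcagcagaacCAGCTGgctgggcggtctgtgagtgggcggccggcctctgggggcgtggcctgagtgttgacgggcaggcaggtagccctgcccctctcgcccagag
Epha1, chr6:42373269-42373518, minus strand: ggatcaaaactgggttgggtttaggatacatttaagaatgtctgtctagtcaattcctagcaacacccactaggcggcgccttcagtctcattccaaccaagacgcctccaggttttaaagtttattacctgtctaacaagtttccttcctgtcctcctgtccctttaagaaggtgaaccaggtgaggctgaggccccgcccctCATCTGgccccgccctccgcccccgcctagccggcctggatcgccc
Epha2, chr4:141300971-141301220, plus strand: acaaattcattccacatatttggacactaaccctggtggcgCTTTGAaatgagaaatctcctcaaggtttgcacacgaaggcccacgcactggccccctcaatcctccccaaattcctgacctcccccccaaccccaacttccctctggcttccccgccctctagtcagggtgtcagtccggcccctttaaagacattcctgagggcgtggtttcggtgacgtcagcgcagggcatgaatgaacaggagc

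All 9 members were found in the promoter table. In the 250 bases before the annotated start, *Ephb3* held 1 match to CAGCTG, *Epha1* held 1 match to CAGATG (as its reverse complement) and *Epha2* held 1 match to CTTTGA. The other 6 members held none of the 3 motifs. Among 32851 promoter windows of the same length, 13.8% held CTTTGA, 14.4% held CAGATG and 13.0% held CAGCTG, and 35.8% held at least 1 of them. The motifs do not overlap each other in these windows, and a match describes letters only.

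Of the B-class receptors, *Ephb3* and *Ephb2* were higher in tdTom+ cells, while *Ephb4* did not pass the test. Of the A-class genes, the receptors *Epha1* and *Epha2* and the ephrin *Efna1* were lower. The ephrins *Efnb1*, *Efnb2* and *Efna4* did not pass the test in either direction. The members therefore counted 2 higher, 3 lower and 4 not called, with edgeR's quasi-likelihood fit, the mouse as a block and a threshold of 0.01 on the adjusted p. Over all 15323 genes tested, 25.8% were called higher, 30.0% lower and 55.8% in either direction, so the 5 of 9 members called were near the share of all genes. The median log2 fold change was -0.0027 over the 9 members and 0.017 over all genes. Each of the 5 called members changed in the same direction in 8 of 8 mice. Of the 15323 genes tested, 3507 were higher in tdTom+ in all 8 mice and 4203 were lower, so such agreement was common.

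**Figure D1:**
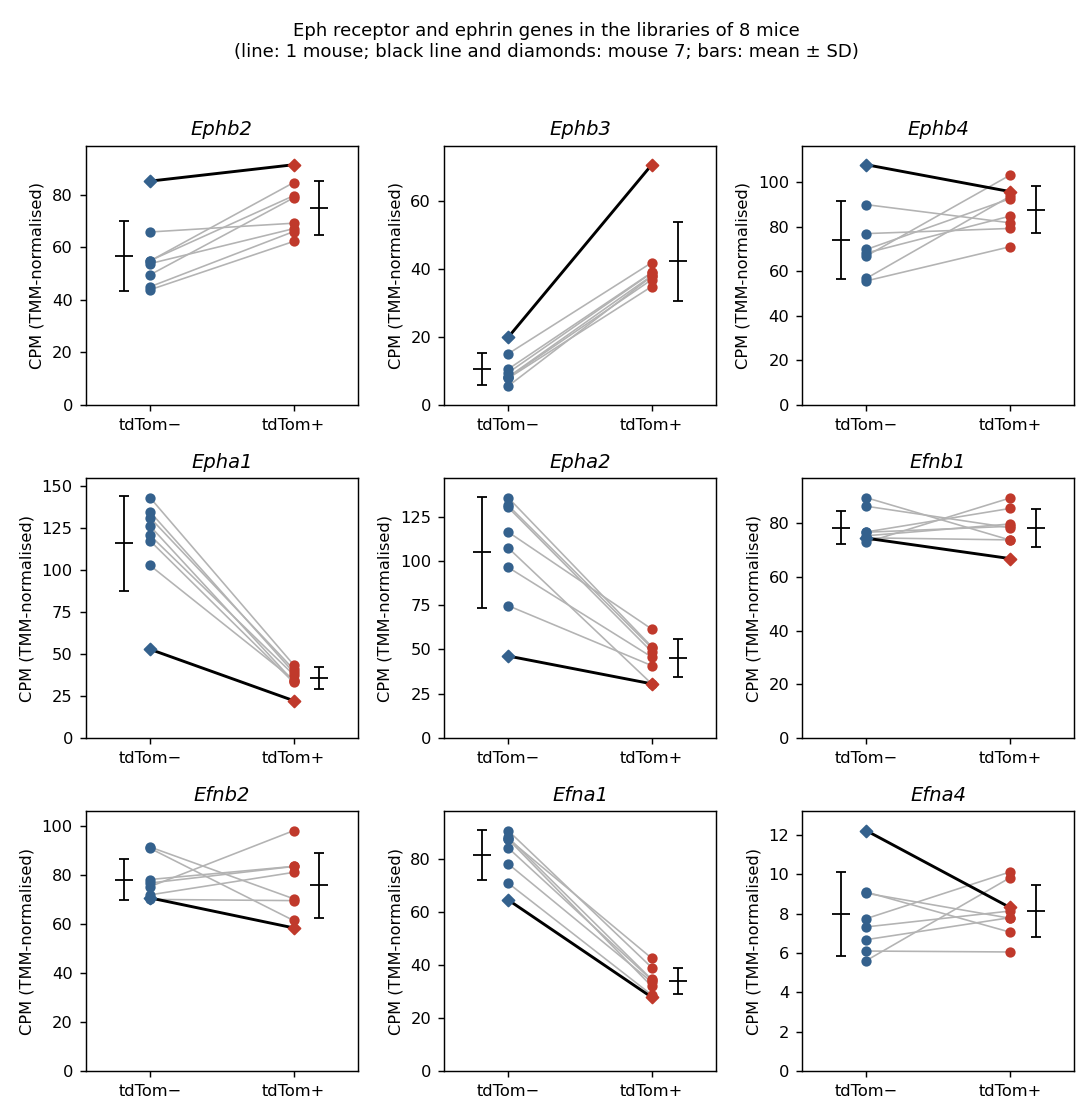
TMM-scaled CPM (linear axes from 0) of each member in tdTom- (blue) and tdTom+ (red) libraries, with lines joining the libraries of 1 mouse, mouse 7 in black with diamonds, and bars for the mean ± SD (n = 8). *Ephb3* and *Ephb2* rose and *Epha1*, *Epha2* and *Efna1* fell in 8 of 8 mice, and the lines of *Efnb1*, *Efnb2* and *Efna4* cross.

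*Ephb3* (ENSMUSG00000005958, GRCm38 chr16:21204755-21223305, plus strand) encodes the receptor known for Paneth cell placement. Its lowest, median and highest values were 34.9, 38.5 and 70.7 CPM in tdTom+ libraries and 5.57, 8.87 and 19.9 CPM in tdTom- libraries. The groups did not overlap, and mouse 7 was the highest of both. The level was 4.12-fold higher in tdTom+ cells (log2 fold change 2.04, SE 0.11, adjusted p = 1.4e-09), and each of the 8 mice showed the rise, by 1.47 to 2.74 on the log2 scale. Apart from mouse 7, the tdTom+ libraries lay in the narrow band of 34.9 to 41.9 CPM and the tdTom- libraries between 5.57 and 15.1 CPM. Without mouse 7 the log2 fold change of *Ephb3* was 2.08 (adjusted p = 1.9e-09). The 8 Paneth markers summed to 52683 to 139451 CPM in tdTom+ and to 405 to 595 CPM in tdTom- libraries, and mouse 7 had the highest tdTom+ sum. In tdTom- libraries, where mouse 7 also had the highest *Ephb3* level, its Paneth sum was 507 CPM, inside the range of the other mice. The part of Paneth cells in the difference in *Ephb3* was not tested.

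*Ephb2* (ENSMUSG00000028664, GRCm38 chr4:136647539-136835988, minus strand), the other B-class receptor of the crypt base, had 62.2, 74.0 and 91.4 CPM as lowest, median and highest values in tdTom+ libraries. In tdTom- libraries these values were 43.9, 54.3 and 85.2 CPM. The groups overlapped through mice 7 and 8 of the tdTom- group, at 85.2 and 65.8 CPM, while the other 6 tdTom- libraries were all below every tdTom+ library. *Ephb2* was 1.34-fold higher in tdTom+ cells (log2 fold change 0.42, SE 0.074, adjusted p = 0.00020), in 8 of 8 mice. Differences within a mouse ran from 0.071 to 0.67 on the log2 scale, the smallest being those of mice 7 and 8. Without mouse 7 the log2 fold change was 0.47. The tdTom- library of mouse 7, with the highest *Ephb2* level of its group, was also the one with the highest stem cell marker sum. In tdTom+ libraries mouse 7 again had the highest *Ephb2* level, while its stem cell marker sum was 2210 CPM, against 1630 to 2868 CPM in the other mice. The part of stem cells in the level of *Ephb2* was not tested.

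*Ephb4* (ENSMUSG00000029710, GRCm38 chr5:137350109-137378669, plus strand) encodes the B-class receptor best known from veins, with ephrin-B2 as its ligand. Its lowest, median and highest values were 71.0, 88.6 and 103 CPM in tdTom+ and 55.7, 69.0 and 108 CPM in tdTom- libraries. The groups overlapped, and tdTom- mouse 7 had the highest value of all 16 libraries. The log2 fold change was 0.27 (SE 0.10, 95% interval 0.058 to 0.48, adjusted p = 0.027), with the higher level in tdTom+ in 6 of 8 mice. Mice 7 and 8 had the higher level in tdTom-. Without mouse 7 the log2 fold change was 0.33 and the gene passed the test (adjusted p = 0.0053), which brought the members called higher to 3. Of the 8 endothelial markers, *Emcn* was at 0 in every library and *Cdh5*, *Kdr*, *Tie1* and *Eng* had at most 7 counts in any library. *Esam* had 12 to 100 counts and was higher in tdTom+ (log2 fold change 1.25), *Pecam1* had 9 to 43 counts and *Tek* 3 to 20 counts. The whole list summed to 4.71 to 6.26 CPM in tdTom+ and 1.84 to 3.97 CPM in tdTom- libraries, with the higher sum in tdTom+ in 8 of 8 mice. Most of the difference lay in *Esam*, with means of 3.59 CPM in tdTom+ and 1.54 CPM in tdTom- libraries. Means of *Pecam1* and *Tek* were also higher in tdTom+, and those of *Cdh5*, *Kdr*, *Tie1* and *Eng* were lower. The part of endothelial cells in the level of *Ephb4* was not tested.

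*Epha1* (ENSMUSG00000029859, GRCm38 chr6:42358487-42373268, minus strand), an A-class receptor of epithelia, fell most among the members. Its lowest, median and highest values were 22.2, 36.2 and 43.7 CPM in tdTom+ libraries and 52.9, 124 and 143 CPM in tdTom- libraries. The groups did not overlap, and mouse 7 was the lowest of both. The level was 3.20-fold lower in tdTom+ cells (log2 fold change -1.68, SE 0.068, adjusted p = 8.6e-11), and the mice differed by -1.90 to -1.25 on the log2 scale. Without mouse 7 the log2 fold change of *Epha1* was -1.73.

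*Epha2* (ENSMUSG00000006445, GRCm38 chr4:141301240-141329384, plus strand) encodes an A-class receptor of epithelial cells that binds ephrin-A1. Its values ran from 30.6 through a median of 47.2 to 61.5 CPM in tdTom+ libraries and from 46.2 through 112 to 136 CPM in tdTom- libraries. The groups overlapped only through the tdTom- library of mouse 7, at 46.2 CPM, since the next lowest tdTom- value was 74.7 CPM. The level was 2.27-fold lower in tdTom+ cells (log2 fold change -1.18, SE 0.11, adjusted p = 4.7e-07), in 8 of 8 mice. Differences within a mouse spanned -1.81 to -0.60 on the log2 scale, a wider span than that of *Epha1*. With mouse 7 left out, the log2 fold change of *Epha2* was -1.26.

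*Efna1* (ENSMUSG00000027954, GRCm38 chr3:89271733-89281142, minus strand), an A-class ephrin and ligand of EphA2, followed the same direction as these receptors. Its lowest, median and highest values were 27.9, 34.0 and 42.6 CPM in tdTom+ libraries and 64.7, 86.0 and 90.9 CPM in tdTom- libraries. The groups did not overlap, and mouse 7 was the lowest of both. The level was 2.40-fold lower in tdTom+ cells (log2 fold change -1.26, SE 0.053, adjusted p = 1.2e-10), in 8 of 8 mice, with differences of -1.45 to -1.04. With mouse 7 left out, *Efna1* had a log2 fold change of -1.27. Absorptive markers fell with these 3 A-class genes, at the sums given above, and their part in the fall was not tested.

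*Efna4* (ENSMUSG00000028040, GRCm38 chr3:89333390-89338028, minus strand), the other A-class ephrin among the members, lies near *Efna1* on the same strand, with *Efna3* between them. Its lowest, median and highest values were 6.05, 7.96 and 10.1 CPM in tdTom+ and 5.62, 7.54 and 12.2 CPM in tdTom- libraries. The groups overlapped over most of their range, and 4 of 8 mice were higher in tdTom+. The log2 fold change was 0.046 (95% interval -0.24 to 0.33, adjusted p = 0.77). The interval held the change of none of the 5 members that were called.

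*Efnb1* (ENSMUSG00000031217, GRCm38 chrX:99136130-99148991, plus strand) and *Efnb2* (ENSMUSG00000001300, GRCm38 chr8:8617434-8660773, minus strand) encode the B-class ephrins that meet EphB2 and EphB3 along the crypt. *Efnb1* had a lowest, median and highest value of 66.9, 78.6 and 89.4 CPM in tdTom+ and 72.9, 76.0 and 89.6 CPM in tdTom- libraries. *Efnb2* had 58.4, 75.6 and 98.0 CPM in tdTom+ and 70.0, 76.0 and 91.4 CPM in tdTom- libraries. Values of both genes overlapped between the groups, and for each of them 4 of 8 mice were higher in tdTom+. The log2 fold change of *Efnb1* was -0.0027 (95% interval -0.14 to 0.14, adjusted p = 0.97). That of *Efnb2* was -0.057 (95% interval -0.26 to 0.15, adjusted p = 0.61). These intervals leave out changes of the size of *Ephb3*, *Epha1*, *Epha2* and *Efna1*, and that of *Ephb2* (0.42) also lies outside both. *Efnb2* is known from arterial endothelium too, and the part of endothelial cells in its level was not tested.

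**Figure D2:**
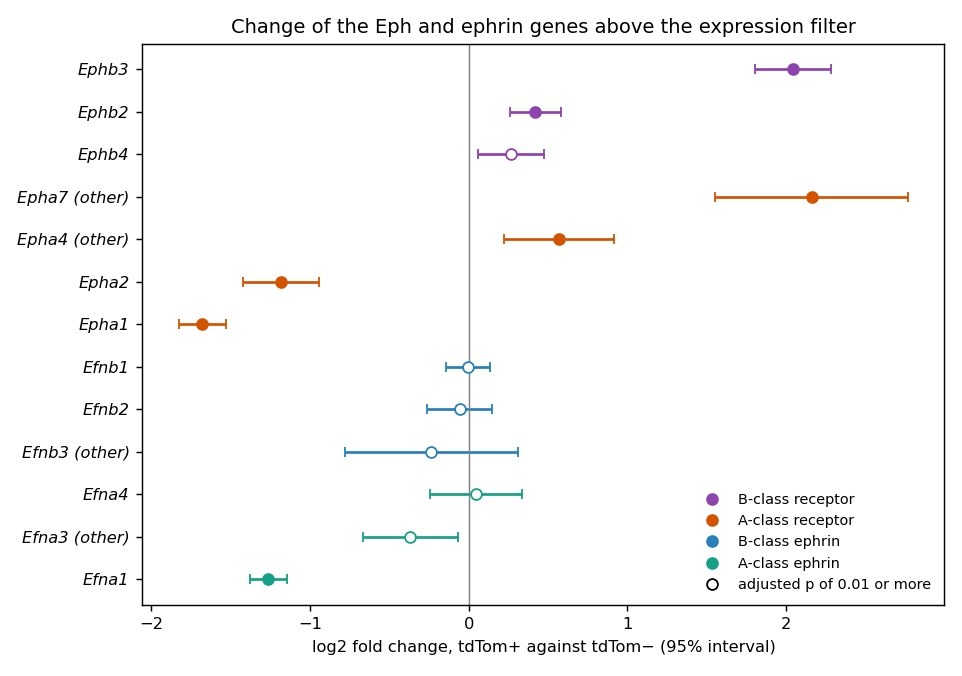
Log2 fold change of tdTom+ against tdTom- (x axis, 95% intervals) of the 9 members and of 4 other Eph and ephrin genes above the filter on low counts, coloured by class, with open circles for an adjusted p of 0.01 or more. *Ephb3* and *Epha7* lie highest, at 2.04 and 2.16, and *Epha1* lowest, at -1.68.

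Levels of different genes were compared per length, as TPM (counts divided by the exon length in the deposited files, then scaled to the same total in every library). TPM was used only within a library, because a change in a few abundant genes moves the TPM of all others. In tdTom- libraries *Efna1* was the most abundant member, at 84.0 ± 19.4 TPM, followed by *Epha1* at 67.9 ± 23.6 TPM (SD, n = 8). *Efnb1*, *Epha2* and *Efnb2* followed at 42.9 ± 10.4, 42.8 ± 15.7 and 34.1 ± 9.0 TPM, with ranges that overlapped, and *Ephb4* lay at 29.3 ± 5.35 TPM. *Efna4* and *Ephb2* were at 9.19 ± 2.15 and 8.28 ± 1.69 TPM, with ranges that overlapped, and *Ephb3* was lowest, at 3.06 ± 1.07 TPM. Only the steps from *Ephb4* to *Efna4* and from *Ephb2* to *Ephb3* had ranges that did not overlap.

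In tdTom+ libraries the order was different. *Efnb1* led at 29.7 ± 4.78 TPM, followed by *Ephb4* at 24.6 ± 4.43, *Efna1* at 24.5 ± 5.40 and *Efnb2* at 22.9 ± 4.82 TPM (SD, n = 8). *Epha1* and *Epha2* came next, at 14.4 ± 3.89 and 12.6 ± 3.48 TPM, ahead of *Ephb3* at 8.55 ± 1.21 TPM and *Ephb2* at 7.71 ± 1.24 TPM. *Efna4* was lowest at 6.67 ± 1.65 TPM. Every pair of neighbours in this order overlapped in range. *Ephb3* was higher than *Ephb2* in 5 of 8 tdTom+ libraries and in none of the tdTom- libraries. The tdTom+ count depends on the length used. With coding transcript lengths, an alternative chosen after seeing the data, *Ephb3* was higher in 8 of 8 tdTom+ libraries. Without division by length, *Ephb2* was the higher gene in every tdTom+ library, and *Ephb3* made up at most 43.6% of their sum.

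Summed within a library, the balance of receptors and ligands differed between the fractions. The ratio of B-class receptors (*Ephb2*, *Ephb3*, *Ephb4*) to B-class ephrins (*Efnb1*, *Efnb2*) averaged 0.806 ± 0.202 (SD, n = 8) in tdTom+, against 0.550 ± 0.164 in tdTom- libraries, and was higher in tdTom+ in 8 of 8 mice, although the ranges overlapped. The ratio of A-class receptors (*Epha1*, *Epha2*) to A-class ephrins (*Efna1*, *Efna4*) was 0.864 ± 0.126 in tdTom+ and 1.16 ± 0.271 in tdTom- libraries, lower in tdTom+ in 7 of 8 mice, with mouse 7 the exception. B-class receptors had 1.63 ± 0.584 times the summed TPM of A-class receptors in tdTom+ and 0.457 ± 0.345 times in tdTom- libraries, higher in tdTom+ in 8 of 8 mice. Mouse 7 had the highest of both, and without it the means were 1.44 and 0.340. *Ephb3* made up 52.6% ± 4.56 of the summed TPM of *Ephb2* and *Ephb3* in tdTom+ and 26.4% ± 4.02 in tdTom- libraries, with no overlap. Without division by length, the B-class ratio of receptors to ephrins was 1.37 in tdTom+ and 0.915 in tdTom- libraries. The A-class ratio was 1.91 and 2.45, that of B-class to A-class receptors 2.69 and 0.767, and the share of *Ephb3* 35.8% and 15.2%. In tdTom+, the mean B-class and A-class ratios of receptors to ephrins lay below 1 with division by length and above 1 without it. In tdTom- libraries, the B-class mean lay below 1 and the A-class mean above 1 in both cases. The direction between the fractions did not change. No test was run on these ratios, which are built from the same counts of the members.

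**Figure D3:**
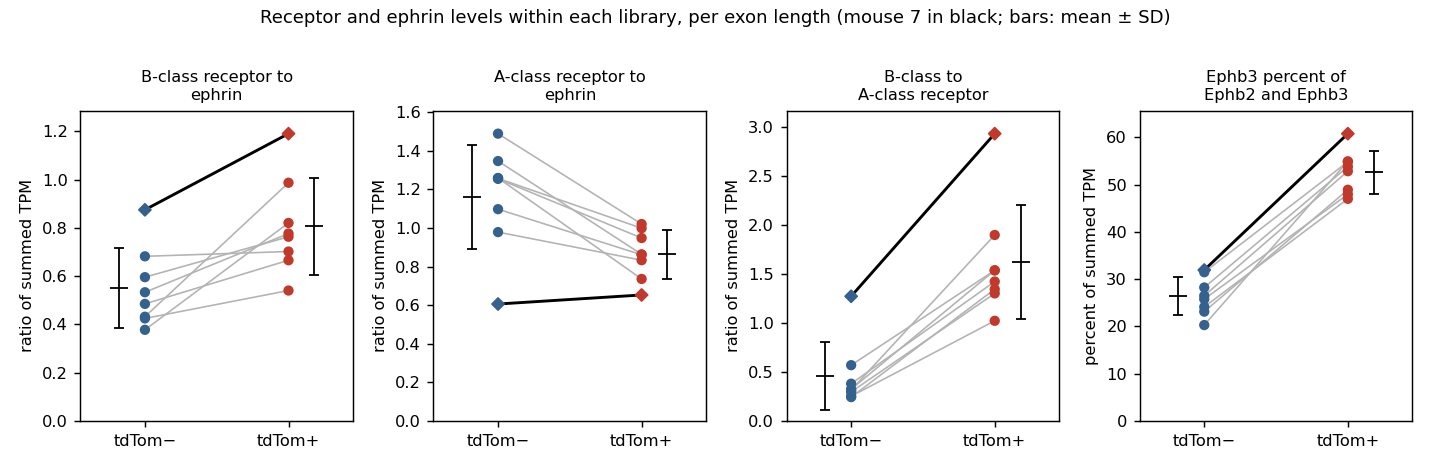
Ratios of summed TPM within each library (y axes from 0, left 3 panels) and the share of *Ephb3* in percent (right panel), by fraction, with lines joining the libraries of 1 mouse, mouse 7 in black, and bars for the mean ± SD (n = 8). The share of *Ephb3* runs from 47.0% to 60.8% in tdTom+ and from 20.3% to 31.9% in tdTom- libraries.

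Of 13 other Eph and ephrin genes, 4 passed the filter on low counts, and 2 of these were called higher and none lower, where 55.8% of all genes were called in either direction (no other was at an adjusted p under 0.01, and *Efna3* was the only one of the 2 remaining with an unadjusted p under 0.05, at 0.020). *Epha7*, an A-class receptor, reached 12 to 28 counts per tdTom+ library against 1 to 7 in tdTom-, and its log2 fold change was 2.16 (SE 0.28, adjusted p = 1.2e-05). *Epha4*, a receptor of both classes of ephrin, had 33 to 88 and 26 to 66 counts and overlapped between groups (log2 fold change 0.57, SE 0.16, adjusted p = 0.0069). The call of *Epha4* was lost without the block for the mouse (log2 fold change 0.57), with scaling by total counts (0.50) and when mouse 1, 4, 5 or 6 was left out, with values of 0.48 to 0.71 over all mice left out. *Efna3* had a log2 fold change of -0.37 (adjusted p = 0.032), and *Efnb3* one of -0.24 (adjusted p = 0.43). *Epha7* at a mean of 0.961 CPM and *Epha4* at 2.79 CPM in tdTom+ cells were rare beside the 9 members.

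The other 9 genes were below the filter. *Epha6*, *Epha8* and *Efna5* had no count in any library, and a count of 0 allows up to 3 counts, or 0.123 to 0.191 CPM per library, a limit that covers counting error only. *Ephb1* had at most 1 count in any library and *Ephb6* at most 3. *Epha3* had 3 to 9 counts per tdTom+ library against 0 to 3 in tdTom-, *Epha5* had 1 to 3 and 3 to 5 counts, *Epha10* had 0 to 9 and 0 to 5 counts, and *Efna2* had 1 to 8 and 0 to 6 counts. These genes were not tested.

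Genes that carry Eph and ephrin signals inside the cell were called in both directions. Of 36 signalling partners, 34 passed the filter, of which 12 were higher, 11 lower and 11 not called, against 25.8% higher and 30.0% lower over all genes. Their median log2 fold change was 0.089, against 0.017 over all genes. The number called higher was 8 by total counts and 16 with at least 10 counts in every sample. *Kalrn* fell most, with 6.18 ± 1.31 CPM in tdTom+ and 41.6 ± 12.3 CPM in tdTom- libraries (SD, n = 8; log2 fold change -2.70, SE 0.13, adjusted p = 3.6e-10). *Vav2* had a log2 fold change of -1.40 and *Ngef*, also known as ephexin, one of -1.18. PDZ proteins, which can bind the tail of B-class ephrins, counted 3 higher and 1 not called, and *Grip1* among them reached 17 to 29 counts per tdTom+ library against 1 to 9 in tdTom- (log2 fold change 1.93, SE 0.26, adjusted p = 1.5e-05). Of the Src and Abl kinases 1 was higher, *Fyn* (log2 fold change 1.07), and 3 were lower. The call of *Fyn* was lost without the block for the mouse (0.97, adjusted p = 0.019). *Ptprj*, a receptor phosphatase, had a log2 fold change of 0.83. The metalloprotease gene *Adam10*, whose product cleaves ephrins and Ephs, was among those called higher.

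*Ephb2* and *Ephb3* are classic Wnt target genes, so 15 other Wnt targets of the crypt were set beside them. Of these, 14 passed the filter, with 8 higher, 2 lower and 4 not called in tdTom+ cells (25.8% higher and 30.0% lower over all genes). Their median log2 fold change was 0.46, against 0.017 over all genes. The number called higher was 6 without the block for the mouse, by total counts and with DESeq2 without the block. It was also 6 when mouse 1, 2, 4, 5 or 6 was left out, 7 with limma-voom and 9 without mouse 7. *Mmp7*, a protease gene of Paneth cells, had the largest change (log2 fold change 7.45), followed by *Nkd1*, a Wnt pathway inhibitor (4.05), at 108 to 287 counts per tdTom+ library against 3 to 38 in tdTom-. *Sp5*, a transcription factor gene, was lower (-1.68), and *Notum*, which encodes a secreted Wnt inhibitor, had -1.20 (adjusted p = 0.0076), a call that was lost without the block for the mouse, with DESeq2 and the block, and when mouse 1, 2, 3, 4 or 5 was left out. *Mmp7* is also in the Paneth list, and *Axin2*, *Lgr5* and *Ascl2* are in the stem cell list. *Lgr5*, a stem cell marker, had a log2 fold change of 0.89 and was higher in 7 of 8 mice. The rise of *Ephb3* (2.04) lay between those of *Nkd1* and *Sox9* (1.44), and that of *Ephb2* (0.42) lay below the median of the list.

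**Figure D4:**
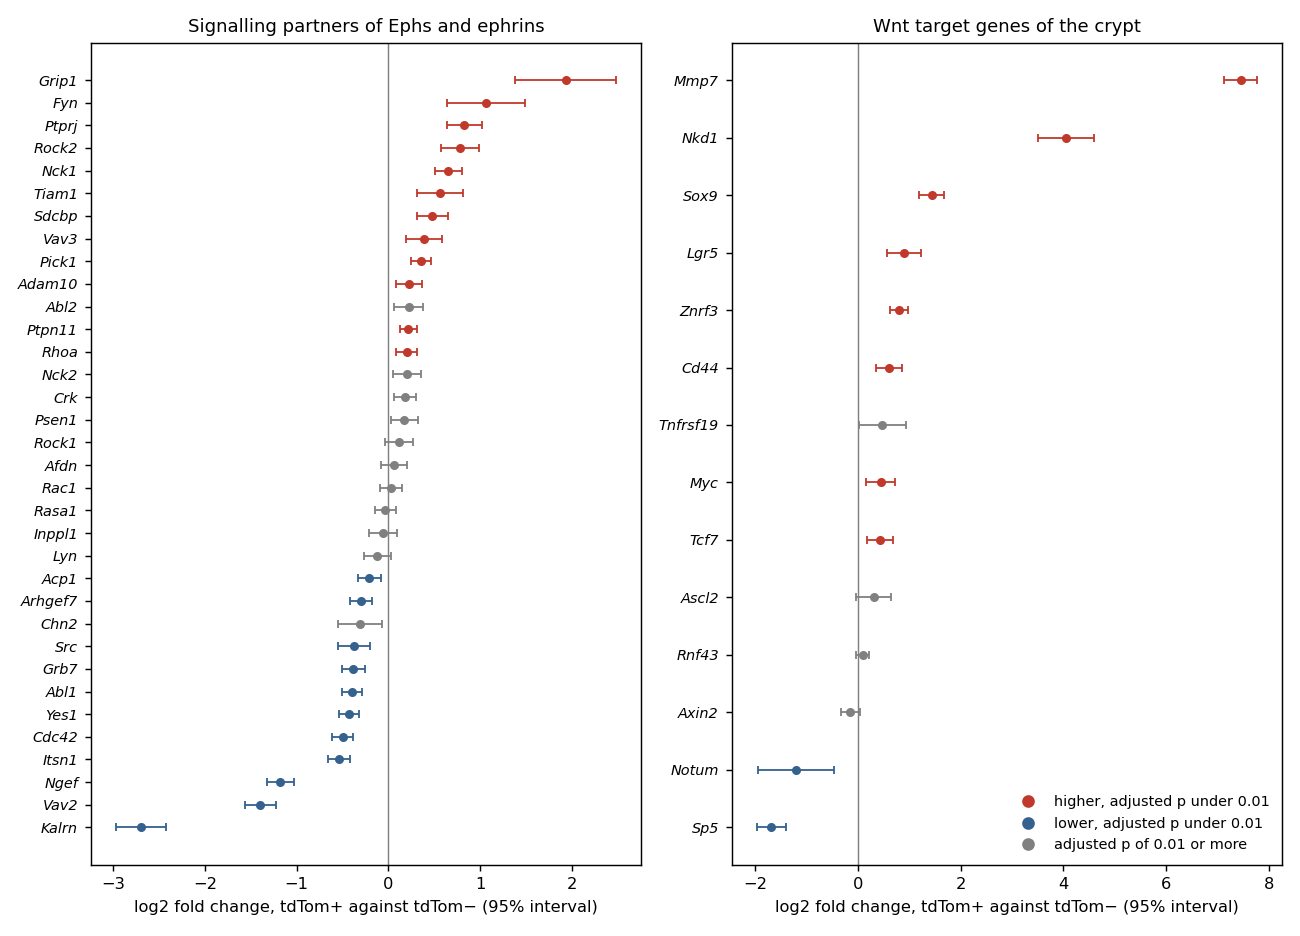
Log2 fold change of tdTom+ against tdTom- (x axes, 95% intervals) of 34 signalling partners of Ephs and ephrins (left) and 14 Wnt target genes of the crypt (right), in red where called higher, blue where called lower and grey otherwise. The partners run from *Kalrn* at -2.70 to *Grip1* at 1.93, and the Wnt targets from *Sp5* at -1.68 to *Mmp7* at 7.45.

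The genes that varied most like each member across the mice were listed. For each member, all tested genes were ranked by the lower of their Pearson correlations across the 8 mice in tdTom+ and in tdTom- libraries, on TMM log2 CPM. These values are a description over 8 libraries per fraction, which the same mice gave and which include mouse 7. The genes named are the highest of all 15323 tested, and no background level for such a choice was computed. High values and lists that differ between members are therefore not a result about the members. *Efnb1* and *Efnb2* were each other's closest gene of all those tested, at 0.92, and the correlations without mouse 7 were 0.90 in tdTom+ and 0.91 in tdTom- libraries. The next genes were *Ctnnb1* and *Cd151* for *Efnb1* (0.90 and 0.89) and *Rab11b* and *Chmp2b* for *Efnb2* (0.91 and 0.89). *Ephb4* varied most like *Gins2*, *Timm50* and *Wdr18* (0.97, 0.97 and 0.96). *Ephb2* was closest to *Zfp593*, *Fads2* and *Memo1* (0.97, 0.95 and 0.94). *Epha1* was closest to *Gpt*, *Proz* and *Creb3l3* (0.98, 0.98 and 0.97), genes that were lower in tdTom+ by log2 fold changes of -2.78, -2.97 and -3.29.

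*Epha2* varied most like *Tdrd7*, *Lysmd4* and *Crybg2* (0.96, 0.95 and 0.95), of which *Tdrd7* and *Lysmd4* were higher in tdTom+ while *Epha2* was lower. *Efna1* was closest to *Fbxw9*, *Rassf7* and *E430018J23Rik* (0.92, 0.91 and 0.90), all lower in tdTom+ as *Efna1* was. *Efna4* was closest to *Abhd14a*, *Mfge8* and *Kcnn4* (0.94, 0.93 and 0.92). *Ephb3* was closest to *Wdr6*, *Cited4* and *Paip2b* (0.93, 0.92 and 0.91), and without mouse 7 its correlation with *Cited4* in tdTom+ libraries was 0.62. Without mouse 7, the lowest correlation in either fraction between a member and its 3 genes was 0.93 for *Ephb4*, 0.87 for *Ephb2* and *Efnb2*, 0.85 for *Efna4*, 0.84 for *Efnb1*, *Epha1* and *Epha2*, 0.78 for *Efna1* and 0.62 for *Ephb3*.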

How the data were processed

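RNA of EpCAM+tdTom+ and EpCAM+tdTom- cells was sequenced with a stranded mRNA kit. The authors aligned reads to GRCm38 (TopHat2 2.1.1 in the submitters' processing notes), and counted them per Ensembl gene. The deposited values are raw counts. The file headers name featureCounts 1.5.0-p1 (Subread 1.5.2 in the notes), run on exons, reverse strand, primary alignments. No normalization had been applied. No member shared exon bases with another gene on the same strand, and 44585 of 45513 identifiers had a symbol. Total counts of 17116405 to 25323567 set the counting precision.

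Counts were analysed in R 4.3.3 with edgeR 4.0.16 (filterByExpr, TMM, quasi-likelihood F-test with the mouse as a block, Benjamini-Hochberg adjustment over 15323 genes, threshold 0.01). SE is the log2 fold change divided by the square root of F. The study's methods name no block, and the fit without one was an alternative. The block rests on the design, which puts both fractions in each mouse, and on a shared number in the title. Deviations from the group means correlated by 0.245 to 0.634 within a mouse (mean 0.426, against -0.057 between mice), and 8 of 8 libraries matched their own number best. The other alternatives were other size factors, total counts, DESeq2 1.42.0, TMM without the 10 genes of highest count, limma-voom (limma 3.58.1), other filters on low counts, thinning, other thresholds and leaving out each mouse. Genes named were the members, the other Eph and ephrin genes, the 3 partners and the 2 Wnt targets with the largest and smallest change among those called, *Sox9*, *Lgr5* and *Adam10* (picked after their values were seen), the 3 genes most like each member, and *Atoh1*. CPM correlations used a prior count of 2. The members and the gene lists were chosen with earlier results of these data known.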

Additional observations from a re-analysis of the deposited data

Results flagged for a closer look

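Among 27 sets of 8 libraries examined (9 members in each fraction, and the difference between fractions), 3 had 1 library far from the others by Dixon's test, where about 1.35 are expected by chance at 1 in 20. All 3 were libraries of mouse 7. In tdTom+ libraries its *Ephb3* level was the highest, at 6.15 on the log2 CPM scale (70.7 CPM), with the next at 5.39. Its *Epha1* level was the lowest in tdTom+, at 4.48 (22.2 CPM, next 5.05), and in tdTom- libraries, at 5.73 (52.9 CPM, next 6.69). Without mouse 7 the log2 fold change of *Ephb3* was 2.08 and that of *Epha1* -1.73, both called.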

How the results depend on the processing

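The calls of *Ephb3*, *Ephb2*, *Epha1*, *Epha2* and *Efna1* held in each of 18 refits that changed the fit, scaling, filter or mice, with log2 fold changes of 1.98 to 2.16, 0.36 to 0.54, -1.74 to -1.56, -1.26 to -1.07 and -1.33 to -1.14. Leaving out the replicate block gave 0.40 for *Ephb2* (adjusted p = 0.0090) and changed the call of no member. *Ephb4* was called with DESeq2 and the block (0.28), with at least 10 counts in every sample (0.39) and at a threshold of 0.05 (0.27), and ran from 0.20 to 0.36 with 1 mouse left out.

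Requiring 10 counts in every sample, or leaving out mouse 3, moved the median of all genes by 0.106 or 0.105, and the first gave 4448 higher and 3356 lower (57.0% higher, against 46.2%). The sign of the 3 uncalled ephrins turned under some alternatives. *Efnb1* was 0.0051 with RLE factors, 0.0070 with DESeq2 with and without the block, and 0.12 with at least 10 counts, and -0.026 to 0.061 with 1 mouse left out. *Efnb2* was 0.062 with at least 10 counts and -0.090 to 0.016 with 1 mouse left out. *Efna4* was -0.017 by total counts and -0.064 to 0.16 with 1 mouse left out. The cause was not tested.

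Requiring also a change of 1 or more on the log2 scale left 1740 genes higher and 1758 lower, 1 member higher (*Ephb2*, at 0.42, was lost), 1 other Eph gene, 2 partners higher and 3 lower, and 3 Wnt targets higher. The other Eph genes called higher were also 1 without the block, by total counts and with at least 10 counts, and 1 to 2 with 1 mouse left out, and 1 was lower at a threshold of 0.05. Wnt targets called lower were 1 without the block, with DESeq2 and the block and with at least 10 counts, and 1 to 2 with 1 mouse left out.

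Ratios without division by length were 1.37 (tdTom+) and 0.915 (tdTom-) for B-class receptors to ephrins, 1.91 and 2.45 for A-class, and 2.69 and 0.767 for B-class to A-class receptors, and the share of *Ephb3* was 35.8% and 15.2%. With coding transcript lengths, an alternative chosen after seeing the data, *Ephb3* was 56.0% and 29.1%, and the order of some neighbours changed. The number of libraries and their counts limit *Epha7* and *Grip1*, with under 30 counts each.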
